A study of Mus musculus with 20 samples.

Results

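The metalloprotease genes of the mouse and the genes of their tissue inhibitors were compared in adipocyte progenitor cells (APCs). Members were all genes whose symbol begins with Mmp and a number (matrix metalloproteases), Adam and a number (a disintegrin and metalloprotease), or Adamts (ADAM with thrombospondin motifs, with the ADAMTS-like genes), and Timp1 to Timp4 (tissue inhibitors of metalloproteases), whose values averaged 10 normalized reads or more across the libraries. Of 27179 genes measured, 84 carried such a symbol, and 48 of the 84 reached that mean: 12 of 23 Mmp genes, 13 of 33 Adam genes, 15 of 19 Adamts genes, 5 of 5 Adamtsl genes and 3 of 4 Timp genes. Just inside the minimum was Mmp9, with a mean of 10.8, and just outside it were Adam4 with 9.93, Adamts19 with 9.47 and Adamts20 with 9.17. The fourth inhibitor gene, Timp4, had a mean of 3.73. Among the genes below the minimum were the collagenases Mmp8 (2.80) and Mmp13 (1.31) and the macrophage elastase Mmp12 (0.543).

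The cells came from inguinal white adipose tissue, the subcutaneous fat of the groin, of male C57BL/6 mice, in which the labels name no genetic change. PDGFRb+ cells had been isolated by flow cytometry and parted into DPP4+ and DPP4- APCs (DPP4 is a membrane-bound dipeptidyl peptidase). Mice had been kept at 22 °C or exposed to 6 °C for 24 h, and each population at each temperature had 5 RNA-seq libraries, 20 in all. The labels do not say that the libraries came from separate animals, so p-values measure the spread between these libraries. The series title names the cold response of the DPP4+ progenitors as its subject, and the design gives 4 comparisons and the difference between the cold effects of the populations.

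Matrix metalloproteases cleave collagens, gelatin and other matrix proteins, and most are secreted as inactive precursors that are activated outside the cell. ADAM proteases sit in the membrane and shed growth factors, cytokines and receptors, while several ADAMs lack a working protease and act in adhesion. ADAMTS proteases are secreted and cut proteoglycans such as versican and aggrecan, trim procollagen, or act on fibrillin microfibrils. ADAMTS-like proteins hold the matrix-binding modules of the family and no protease. TIMPs block metalloproteases by binding their active site. In growing fat these enzymes and inhibitors are known to shape the pericellular collagen around progenitors and adipocytes. RNA levels were measured here, not the activation of the precursors or the activity of the enzymes.

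Each library held between 8.49 and 18.8 M reads in genes (M for 1e+06). Values are normalized reads per gene, given in the order of replicates 1 to 5 of a group, and each difference is a difference of means of log2(value + 1), tested with limma over 13057 genes and called at an adjusted p under 0.05. Pdgfrb, by whose protein the cells were sorted, was present in every group, as were the progenitor markers Pdgfra, Cd34, Ly6a and Thy1. Dpp4 averaged 8546 ± 1158 (SD, n = 5) at 22 °C in DPP4+ cells and 67.9 ± 21.6 in DPP4- cells. The summed markers of lymphocytes reached at most 134 normalized reads in a library and those of macrophages at most 592. The endothelial markers summed to 2603 to 4301 in DPP4+ and to 916 to 1461 in DPP4- libraries, and the adipocyte markers to 438 to 1076 and to 2081 to 5195. Most of the endothelial sum was Tek (means 2811 in DPP4+ and 888 in DPP4- cells at 22 °C). Pecam1 (23.7 and 73.6) and Cdh5 (20.6 and 69.8) of that list had the opposite order. Most of the adipocyte sum in DPP4- cells was Plin4 (214 and 2998 at 22 °C). Adipoq (332 and 20.1) and Plin1 (342 and 35.8) of that list had the opposite order. The part of such cells in the results was not tested. The neutrophil and mast cell markers summed to 7.48 to 403 in 19 libraries and to 2089 in DPP4- replicate 2 at 6 °C. DPP4+ replicate 5 at 6 °C lay at an edge of its group for several members, and values or counts without it are given where they change a result by over 1.5 times or lose a call.

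Promoter sequence from RefSeq (GRCm38.p6) was available for 29 of the 48 members, in 32 windows of 250 bases before the gene's start. They were searched on both strands for the AP-1 letters TGANTCA and the cAMP response element TGACGTCA, which share no full match. The AP-1 letters were in the windows of 2 members, Mmp3 and Adam19 (6.25% of the windows), against 6.75% of 32817 promoters of the same length. The cAMP response element was in the windows of 0 members, against 1.55% of promoters. The following windows are shown because the results below turn on these genes: Mmp3 parted the populations at both temperatures, Adam19 fell in DPP4+ cells in the cold, and Adamts9 and the gene A730049H05Rik on its other strand rose there. Capitals mark the AP-1 letters, and each sequence runs 5′ to 3′ on the gene's strand and ends at the base before the start.
Mmp3, chr9:7445572-7445821, plus strand: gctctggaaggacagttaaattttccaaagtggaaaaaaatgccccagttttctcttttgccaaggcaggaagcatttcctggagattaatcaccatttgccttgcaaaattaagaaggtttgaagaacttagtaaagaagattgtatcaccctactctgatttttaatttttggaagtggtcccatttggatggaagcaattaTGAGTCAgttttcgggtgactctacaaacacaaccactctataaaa
Adam19, chr11:46055734-46055983, plus strand: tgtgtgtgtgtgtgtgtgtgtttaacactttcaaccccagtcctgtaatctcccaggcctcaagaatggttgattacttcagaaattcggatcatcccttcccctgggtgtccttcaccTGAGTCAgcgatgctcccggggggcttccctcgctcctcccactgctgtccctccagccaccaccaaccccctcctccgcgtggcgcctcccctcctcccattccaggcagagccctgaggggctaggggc
Adamts9, chr6:92943535-92943784, minus strand: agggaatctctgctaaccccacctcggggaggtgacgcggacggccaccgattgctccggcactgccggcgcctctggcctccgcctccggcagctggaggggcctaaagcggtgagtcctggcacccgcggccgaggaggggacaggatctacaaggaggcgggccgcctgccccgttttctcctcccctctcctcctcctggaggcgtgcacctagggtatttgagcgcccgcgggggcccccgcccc
A730049H05Rik, chr6:92816193-92816442, plus strand: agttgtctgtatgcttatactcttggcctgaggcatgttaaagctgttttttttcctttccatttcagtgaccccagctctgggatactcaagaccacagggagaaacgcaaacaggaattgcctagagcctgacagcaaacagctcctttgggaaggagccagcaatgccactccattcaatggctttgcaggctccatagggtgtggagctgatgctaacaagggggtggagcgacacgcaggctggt
In Mmp3 the letters begin 46 bases before the start and in the Adam19 window shown 131 bases before it. The other Adam19 windows, chr11:46054252-46054501 and chr11:46127654-46127903, held no match. The Adam19 and Adamts9 windows shown precede a start that lies inside the gene's RefSeq span. The windows differ in composition. The Mmp3 window is 37.6% G or C with 1 CG pair and the Adamts9 window 71.2% with 22 CG pairs, between which lie A730049H05Rik (50.8%, 3 pairs) and Adam19 (60%, 7 pairs). A match of letters is a description of the sequence only.

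The families differed in how they were shared between the populations. To compare levels between genes, reads were divided by the exon length of each gene in kb and summed by family. The summed level of the 12 Mmp genes was 11231 ± 1410.0 normalized reads per kb (SD, n = 5) in DPP4+ cells at 22 °C and 14245 ± 1310.4 at 6 °C, against 31732 ± 1238 and 31171 ± 804 in DPP4- cells. The 15 Adamts genes summed to 6041 ± 821 and 5935 ± 334 in DPP4+ cells and to 19534 ± 1446 and 18186 ± 1539 in DPP4- cells. The 3 Timp genes summed to 16763 ± 1157 and 20695 ± 2549.9 in DPP4+ cells and to 15612 ± 655 and 14788 ± 928 in DPP4- cells. The ratio of the Timp sum to the Mmp sum within a library, which dividing a library by 1 factor cannot change, was 1.51 ± 0.140 and 1.45 ± 0.0940 in DPP4+ cells and 0.492 ± 0.0252 and 0.475 ± 0.0380 in DPP4- cells. The lowest ratio in a DPP4+ library was 1.31 and the highest in a DPP4- library 0.533, so the populations did not overlap at either temperature, while the temperatures overlapped in both populations.

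**Figure D1:**
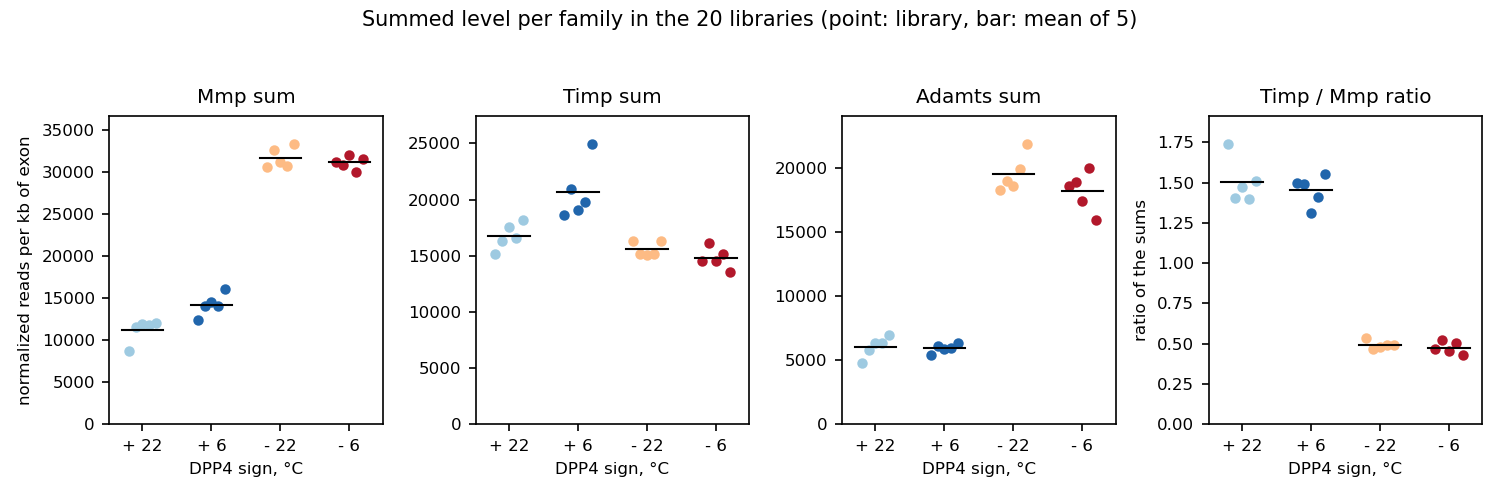
Summed normalized reads per kb of exon for the Mmp, Timp and Adamts members and the ratio of the Timp to the Mmp sum, on linear axes, with 1 point per library and a bar at the mean of 5. At the deposited scaling the Mmp and Adamts sums are higher in all DPP4- libraries. The Timp to Mmp ratio lies between 1.31 and 1.74 in DPP4+ and between 0.430 and 0.533 in DPP4- libraries.

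Few genes made up these sums. Mmp2 held 64.2% of the Mmp sum in DPP4+ cells at 22 °C and 70.8% at 6 °C, and 45.8% and 51.2% in DPP4- cells. Mmp3 held 39.1% and 33.7% in DPP4- cells and 11.0% and 8.50% in DPP4+ cells. Per kb, Timp2 was the most abundant inhibitor in every group, with 65.2 to 70.5% of the Timp sum. Adamts1 held 48.6 to 54.3% of the Adamts sum in the 4 groups. The next Adamts gene was Adamts4 in DPP4- cells, with 29.3% and 27.5%, and Adamts2 in DPP4+ cells, with 21.2% and 23.0%. Adam9 was the most abundant Adam gene, with 35.3 to 40.7%. In bulk libraries fewer cells of a type and less RNA per cell cannot be told apart, which holds for every level given here.

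In DPP4+ cells 24 h of cold changed 20 of the 48 genes, 9 upward and 11 downward. The share was 46.1% over all 13057 genes tested (23.5% upward and 22.6% downward), so the count for the family was near the background. The largest rises were Adamtsl2, 5.78-fold by group means, and Adamts9, 5.53-fold, and the largest falls were Adamts15, 5.44-fold, and Mmp11, 3.94-fold. The 5 cold and 5 warm libraries did not overlap for 17 members, against 38.4% of all genes. With library totals set equal 8 members rose and 16 fell, against 2451 and 3498 of the 13057 genes. By family 4 Mmp genes rose and 1 fell, 2 Adamts genes rose and 4 fell, 2 Adamtsl genes rose, Timp1 rose, and 6 of 13 Adam genes fell while 0 rose. That Adam count of 0 was also 0 at an unadjusted p under 0.05 with limma, with edgeR and with DESeq2, and 1, Adam8, with quantile normalization or when only the DPP4+ libraries were fitted. The median log2 difference of the members was -0.07, against 0.01 for all genes.

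**Figure D2:**
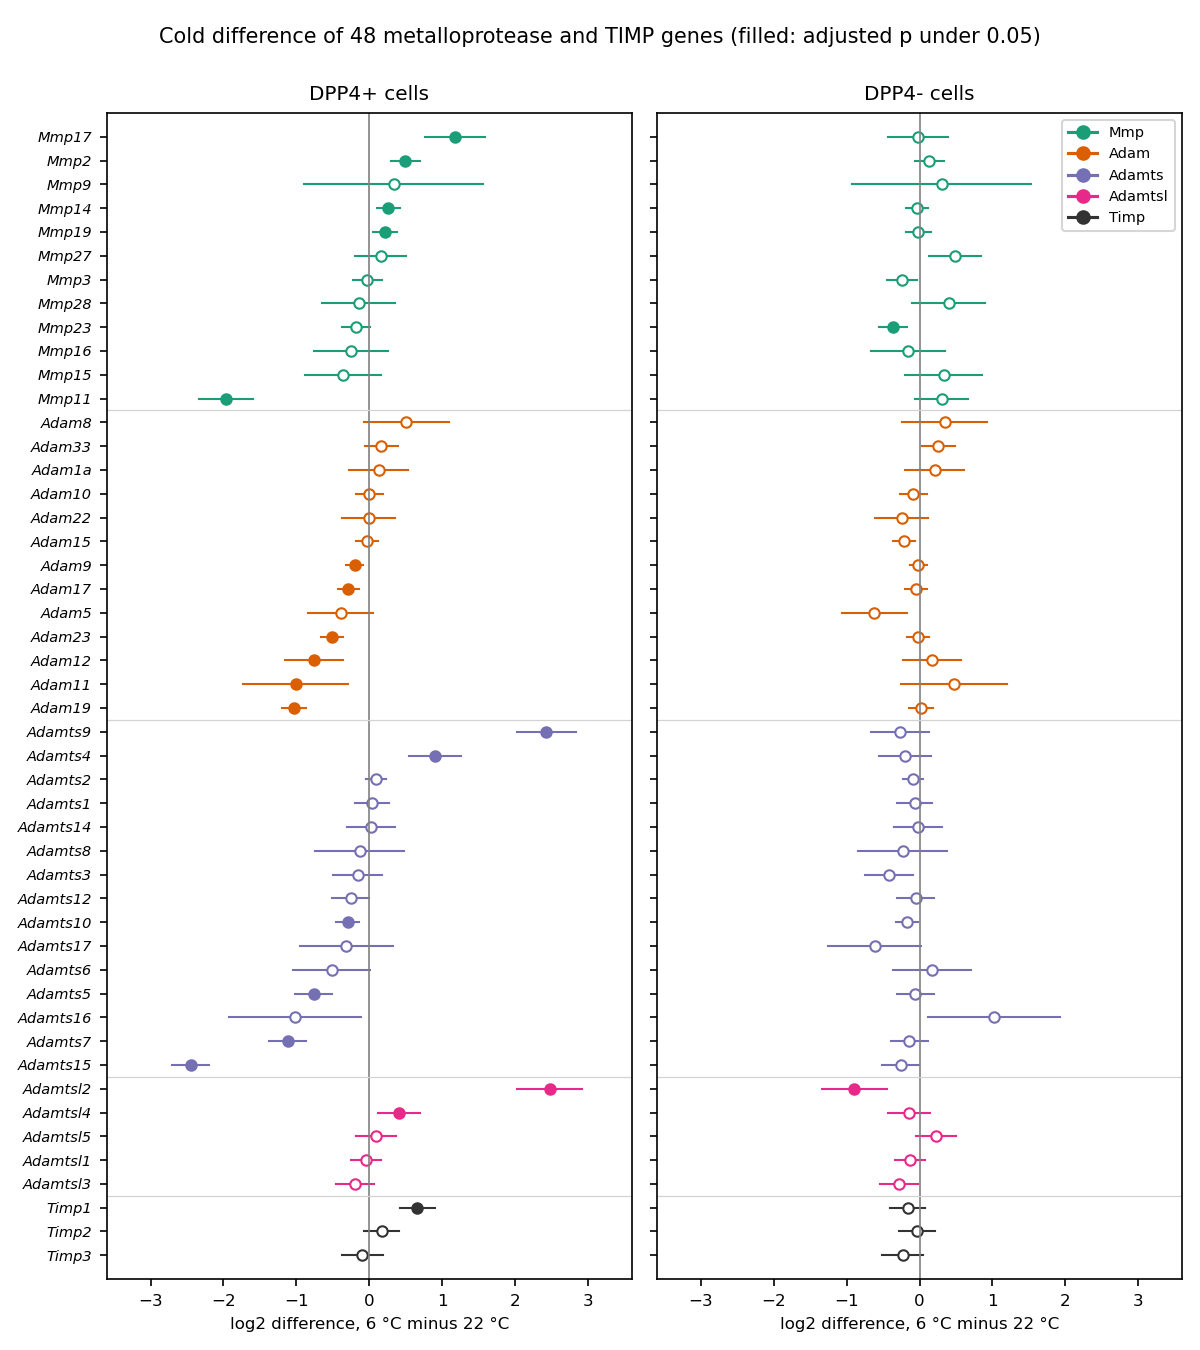
Log2 difference between 6 °C and 22 °C of the 48 members in DPP4+ cells (left) and DPP4- cells (right), ordered by family and by the difference in DPP4+ cells, with lines for 95% intervals and filled points for an adjusted p under 0.05. Filled points run from -2.45 (Adamts15) to 2.48 (Adamtsl2) on the left, and on the right only Adamtsl2 and Mmp23 are filled.

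Of the gelatinases, Mmp2 (Entrez gene 17390, chromosome 8, 92827290 to 92853421) cleaves denatured collagen and basement membrane collagen. Mmp2 stood at 17726, 25143, 26030.4, 25830.3 and 26891 normalized reads in DPP4+ cells at 22 °C and at 29578, 33861, 35409, 33449.5 and 37706 at 6 °C. Mmp2 in DPP4- cells measured 48373, 49214, 48669, 48215 and 50351 at 22 °C and 54567, 51381, 56752, 52377 and 53738 at 6 °C. Every cold library lay above every warm one in each population, with DPP4+ replicate 1 at 22 °C far below its group. The rise was 1.4-fold in DPP4+ cells (log2 difference 0.49, SE 0.09, adjusted p = 0.000138) and did not pass the test in DPP4- cells (log2 difference 0.13, SE 0.09, adjusted p = 0.443). Mmp14 (Entrez gene 17387, chromosome 14, 54431598 to 54442456), a membrane protease, activates the precursor of Mmp2 at the cell surface. Mmp14 stood at 7706, 8883, 9327, 8522 and 8543 normalized reads in DPP4+ cells at 22 °C and at 9322, 10279, 9823, 9937 and 12341 at 6 °C. Mmp14 in DPP4- cells measured 15821, 17587, 17891, 16768 and 16368 at 22 °C and 15784, 15847, 16935, 16586 and 17145 at 6 °C. The lowest cold DPP4+ value lay just under the highest warm one, and the DPP4- groups were interleaved. Mmp14 rose in DPP4+ cells by 0.26 on the log2 scale (SE 0.07, adjusted p = 0.00478).

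Mmp17 (Entrez gene 23948, chromosome 5, 129584151 to 129611099) is held to the membrane by a lipid anchor. Mmp17 stood at 64.7, 57.6, 65.1, 63.3 and 58.2 normalized reads in DPP4+ cells at 22 °C and at 179, 139, 144, 169.7 and 90.5 at 6 °C. Mmp17 in DPP4- cells measured 45.9, 46.5, 65.5, 53.7 and 81 at 22 °C and 37.5, 54.5, 87.7, 54.6 and 57.6 at 6 °C. The DPP4+ groups were apart, and the DPP4- groups overlapped. Its rise in DPP4+ cells was 2.34-fold (log2 difference 1.18, SE 0.19, adjusted p = 2.67e-05). Mmp19 (Entrez gene 58223, chromosome 10, 128790910 to 128800827) is a secreted protease of the basement membrane. Mmp19 stood at 836, 937, 848, 854 and 776 normalized reads in DPP4+ cells at 22 °C and at 1019, 945, 1057, 1033 and 891 at 6 °C. Mmp19 in DPP4- cells measured 3874, 4432, 3943, 3772 and 3973 at 22 °C and 3301, 3767, 4687, 3695 and 4451 at 6 °C. The DPP4+ groups overlapped, with 1 cold value below the highest warm one. Its small rise there (log2 difference 0.22, SE 0.08, adjusted p = 0.0275) was lost with library totals set equal (0.17, adjusted p = 0.115) and with quantile normalization (0.14, adjusted p = 0.179).

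The stromelysins moved differently from each other. Mmp11 (Entrez gene 17385, chromosome 10, 75923221 to 75932502), known as stromelysin 3, is processed inside the cell before secretion. Mmp11 stood at 470.1, 420.4, 376, 403 and 359 normalized reads in DPP4+ cells at 22 °C and at 112, 94.7, 95.2, 101 and 112 at 6 °C. Mmp11 in DPP4- cells measured 251, 153, 136, 154 and 153 at 22 °C and 331, 226, 173, 145 and 188 at 6 °C. All cold DPP4+ values lay far below the warm ones, and in DPP4- cells replicate 1 was the highest at both temperatures. Mmp11 fell 3.94-fold in DPP4+ cells (log2 difference -1.97, SE 0.17, adjusted p = 5.67e-09). Mmp3 (Entrez gene 17392, chromosome 9, 7445822 to 7455975), stromelysin 1, degrades proteoglycans and activates other MMP precursors. Mmp3 stood at 1678, 2348, 2366, 2422 and 2284 normalized reads in DPP4+ cells at 22 °C and at 1877, 1917, 2171, 2280.2 and 2655 at 6 °C. Mmp3 in DPP4- cells measured 20969.8, 23372, 21404, 21133 and 24736 at 22 °C and 19123, 19686, 18518, 17779.7 and 19433 at 6 °C. The DPP4+ groups overlapped widely, while every cold DPP4- library lay below every warm one. Neither difference passed the test, at -0.02 in DPP4+ cells (adjusted p = 0.852) and -0.24 in DPP4- cells (adjusted p = 0.149).

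Of the 6 Adamts proteoglycanases, which cut versican and aggrecan, 2 rose in DPP4+ cells and 2 fell. Adamts9 (Entrez gene 101401, chromosome 6, 92772699 to 92944450) rose most. Adamts9 stood at 198, 177, 221, 219.9 and 204 normalized reads in DPP4+ cells at 22 °C and at 1427, 1179.5, 1190.4, 1126 and 711 at 6 °C. Adamts9 in DPP4- cells measured 197, 231, 356, 336 and 318 at 22 °C and 184, 288, 260.5, 282 and 175 at 6 °C. The cold DPP4+ libraries stood far above the other 15, the lowest being replicate 5. The rise was 5.53-fold (log2 difference 2.43, SE 0.19, adjusted p = 2.81e-09). The gene on the other strand, A730049H05Rik (Entrez gene 74516, chromosome 6, 92816443 to 92843468), lies within the span of Adamts9, is a noncoding RNA in RefSeq and a protein-coding gene in GENCODE vM21, and was singled out after its values were seen. A730049H05Rik stood at 1.24, 0, 2.17, 1.88 and 0 normalized reads in DPP4+ cells at 22 °C and at 316, 266, 231, 272 and 154 at 6 °C. A730049H05Rik in DPP4- cells measured 0, 6.01, 1.26, 6.14 and 16.7 at 22 °C and 2.68, 9.54, 5.4, 5.65 and 1.65 at 6 °C. It was near 0 in warm DPP4+ libraries and above 150 in all cold ones, with replicate 5 again the lowest. The 2 genes share 1381 exon bases, 9.18% of those of Adamts9 and 36.9% of those of A730049H05Rik in GENCODE vM21, where a further gene on that strand, Gm15737, also overlaps exons of Adamts9. The strand used in counting is not given in the sources used here, so reads in the shared bases cannot be told apart.

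Adamts4 (Entrez gene 240913, chromosome 1, 171250129 to 171262267), known as aggrecanase 1, rose from a low level. Adamts4 stood at 1029.8, 1424, 1504, 2199 and 2058 normalized reads in DPP4+ cells at 22 °C and at 3346, 3015, 3227, 3085 and 2240.0 at 6 °C. Adamts4 in DPP4- cells measured 25726, 24212, 26460.5, 28965 and 32289 at 22 °C and 22919.8, 25756, 23352, 29864 and 18486 at 6 °C. The DPP4+ groups were apart by a small margin, cold replicate 5 lying just above the highest warm library, and all DPP4- values were several times higher. The rise in DPP4+ cells was 1.82-fold (log2 difference 0.90, SE 0.17, adjusted p = 0.0002).

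Adamts15 (Entrez gene 235130, chromosome 9, 30899155 to 30922452) fell most of all members. Adamts15 stood at 1074, 1019, 859, 903 and 926 normalized reads in DPP4+ cells at 22 °C and at 156, 143, 178, 169.7 and 233 at 6 °C. Adamts15 in DPP4- cells measured 1232, 1245, 1179, 970.2 and 877 at 22 °C and 772, 837, 1054, 915 and 1013 at 6 °C. Cold DPP4+ libraries lay far below the other 3 groups, whose ranges overlapped. The fall was 5.44-fold (log2 difference -2.45, SE 0.12, adjusted p = 3.55e-13). Its neighbour Adamts8, 20.1 kb away with no protein-coding gene between, gave -0.13 (adjusted p = 0.733) at a low level. Adamts5 (Entrez gene 23794, chromosome 16, 85858157 to 85901125), aggrecanase 2, was per kb the more abundant of the proteoglycanases that fell. Adamts5 stood at 10224, 11103, 10858, 10590.1 and 12124 normalized reads in DPP4+ cells at 22 °C and at 5067, 6946, 5894, 6088 and 8898 at 6 °C. Adamts5 in DPP4- cells measured 7152, 7429.7, 6743, 7126 and 7808 at 22 °C and 7879, 6116, 5427, 7339 and 8443 at 6 °C. The DPP4+ groups were apart, with cold replicate 5 the highest of the cold libraries, and the cold DPP4- libraries spread on both sides of the warm ones. Adamts5 fell 1.67-fold (log2 difference -0.76, SE 0.12, adjusted p = 1.74e-05).

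Adamts1 (Entrez gene 11504, chromosome 16, 85793827 to 85803113) lies 55.0 kb from Adamts5 on chromosome 16 with no protein-coding gene between. Adamts1 stood at 11050.1, 13962, 17369, 16483 and 18952 normalized reads in DPP4+ cells at 22 °C and at 13551, 16214, 15172, 15976 and 17839 at 6 °C. Adamts1 in DPP4- cells measured 51527, 54908, 51678, 54182 and 60932 at 22 °C and 56393, 55147, 50223, 54563 and 45309 at 6 °C. The temperatures overlapped in both populations, with differences of 0.04 (adjusted p = 0.815) and -0.06 (adjusted p = 0.79). None of the 3 procollagen N-proteinases, Adamts2, Adamts3 and Adamts14, which trim fibrillar procollagen, was called in DPP4+ cells in the cold, where 0 also had an unadjusted p under 0.05 with limma and 0 were called by edgeR or DESeq2.

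Of the other 6 Adamts genes 2 fell in DPP4+ cells with limma, 4 with edgeR or DESeq2, 5 with totals set equal and 3 with quantile normalization. Of the same 6, 0 rose by any of these or at an unadjusted p under 0.05 with limma. Adamts7 (Entrez gene 108153, chromosome 9, 90162904 to 90200102) cleaves cartilage oligomeric matrix protein. Adamts7 stood at 135, 149, 113, 121 and 115 normalized reads in DPP4+ cells at 22 °C and at 62.1, 55.2, 58.3, 61.4 and 50.1 at 6 °C. Adamts7 in DPP4- cells measured 182, 185, 183, 203 and 179 at 22 °C and 150.2, 125, 170.1, 205 and 207 at 6 °C. The DPP4+ groups were apart and the DPP4- groups overlapped. Adamts7 fell 2.2-fold (log2 difference -1.12, SE 0.12, adjusted p = 3.54e-08), and Tbc1d2b, whose exons overlap it on the other strand, fell by 0.46 (adjusted p = 3.16e-06). Adamts10 (Entrez gene 224697, chromosome 17, 33523646 to 33553782) acts on fibrillin microfibrils. Adamts10 stood at 692, 804, 835, 779 and 856 normalized reads in DPP4+ cells at 22 °C and at 604, 696, 622, 593 and 713 at 6 °C. Adamts10 in DPP4- cells measured 2531, 2491, 2757, 2350.3 and 2882 at 22 °C and 2654, 2158, 2189, 2268 and 2296 at 6 °C. Some cold and warm values overlapped in both populations, and the fall in DPP4+ cells was small (log2 difference -0.30, SE 0.07, adjusted p = 0.00179). Adamts16 is described with the population differences. Its DPP4+ groups did not overlap, but the difference of -1.02 missed the threshold (adjusted p = 0.0554) and passed it with edgeR (adjusted p = 2.88e-05) and DESeq2 (adjusted p = 2.17e-06).

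Adamtsl2 (Entrez gene 77794, chromosome 2, 27079336 to 27108981) is an ADAMTS-like protein that binds fibrillin and latent TGF-beta binding protein. Adamtsl2 stood at 18.7, 32.1, 18.8, 16.9 and 16.7 normalized reads in DPP4+ cells at 22 °C and at 147, 124, 135, 116 and 73.3 at 6 °C. Adamtsl2 in DPP4- cells measured 98.6, 81.1, 74.3, 46.1 and 100.3 at 22 °C and 37.5, 49.1, 43.2, 35.8 and 41.2 at 6 °C. Cold values exceeded every warm value in DPP4+ cells, and in DPP4- cells the cold values lay below all warm ones but replicate 4. It rose 5.78-fold in DPP4+ cells (log2 difference 2.48, SE 0.21, adjusted p = 9.77e-10) and fell 1.94-fold in DPP4- cells (log2 difference -0.89, SE 0.21, adjusted p = 0.0138). Adamtsl4 (Entrez gene 229595, chromosome 3, 95676201 to 95687927) also binds fibrillin microfibrils. Adamtsl4 stood at 1973, 2276, 2610.3, 2056 and 2485 normalized reads in DPP4+ cells at 22 °C and at 2530.5, 2932, 2613, 2649 and 4838 at 6 °C. Adamtsl4 in DPP4- cells measured 1754, 1660.4, 1615, 1514 and 1349 at 22 °C and 1401, 1351, 1292, 1543 and 1555 at 6 °C. One cold DPP4+ library, replicate 5, stood far above the rest. The rise in DPP4+ cells (log2 difference 0.41, SE 0.13, adjusted p = 0.0167) was 0.24 (adjusted p = 0.022) without that library, and missed the threshold with quantile normalization (0.31, adjusted p = 0.0648).

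**Figure D3:**
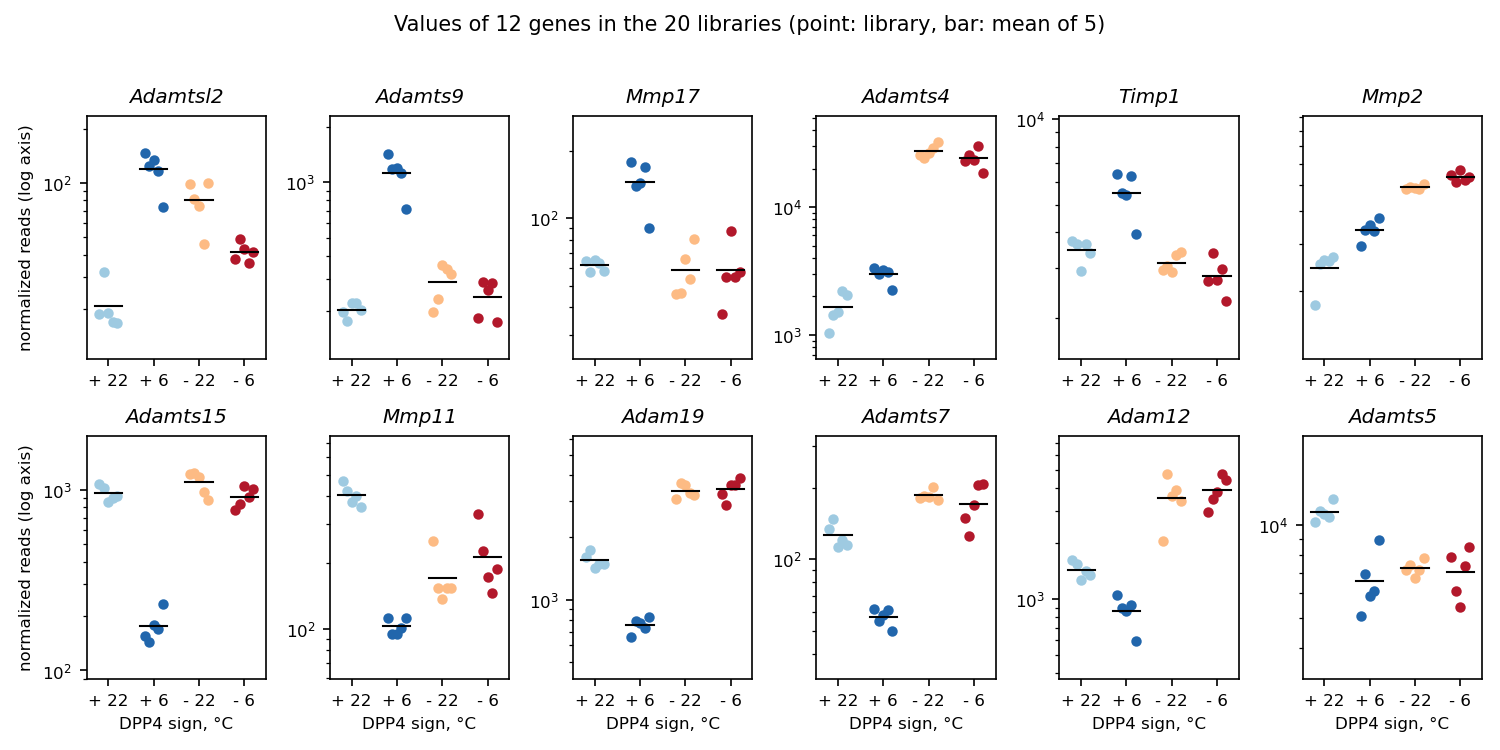
Normalized reads of 12 members in the 20 libraries on log axes, 1 point per library and a bar at the mean of 5, for DPP4+ (blue) and DPP4- (orange and red) cells at 22 and 6 °C. In the upper row the cold DPP4+ libraries lie above the warm ones and in the lower row below them. For all 12 genes the test of the difference between the cold effects passed. The Mmp2 call was lost with totals set equal, with quantile normalization and without any of 12 libraries in turn.

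The Adam genes that fell in DPP4+ cells included active sheddases and members without protease activity. Adam19 (Entrez gene 11492, chromosome 11, 46054502 to 46147347), which sheds neuregulins, had the largest fall of the Adam genes. Adam19 stood at 1611, 1739, 1419.9, 1482 and 1481 normalized reads in DPP4+ cells at 22 °C and at 659, 785, 772, 728 and 826 at 6 °C. Adam19 in DPP4- cells measured 3082, 3675, 3599.9, 3281 and 3207 at 22 °C and 3255, 2856, 3569.9, 3576 and 3882 at 6 °C. Cold DPP4+ values all lay below every warm value, and the DPP4- groups overlapped. The fall was 2.05-fold (log2 difference -1.04, SE 0.08, adjusted p = 1.46e-10). Adam12 (Entrez gene 11489, chromosome 7, 133883199 to 134225097), a protease of mesenchymal cells, followed the same direction. Adam12 stood at 1623, 1551, 1264, 1424 and 1349 normalized reads in DPP4+ cells at 22 °C and at 1051, 899, 858, 935 and 591 at 6 °C. Adam12 in DPP4- cells measured 2054, 4771, 3591, 3901 and 3379 at 22 °C and 2962, 3497, 3801, 4758 and 4413 at 6 °C. The DPP4+ groups did not overlap, replicate 5 being the lowest cold library. Adam12 fell 1.66-fold (log2 difference -0.75, SE 0.19, adjusted p = 0.00284).

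Adam23 (Entrez gene 23792, chromosome 1, 63445717 to 63596111) has no active protease and binds LGI proteins. Adam23 stood at 3259, 3378, 3108, 3109 and 3059 normalized reads in DPP4+ cells at 22 °C and at 2288, 2255, 2208, 2426 and 1991 at 6 °C. Adam23 in DPP4- cells measured 2730.4, 3479.9, 3325, 3433 and 3372 at 22 °C and 3011, 3073, 3061, 3243 and 3709 at 6 °C. DPP4+ groups were apart, and in DPP4- cells they overlapped. Its fall was 1.42-fold (log2 difference -0.51, SE 0.07, adjusted p = 2.46e-06). Adam11, another member without an active protease, averaged 15.4 ± 2.44 and 8.09 ± 4.18 (SD, n = 5) and fell (log2 difference -1.01, SE 0.34, adjusted p = 0.0185). Without DPP4+ replicate 2 at 6 °C the difference was -0.65 and missed the threshold (adjusted p = 0.0745). With quantile normalization it was -0.82 and also missed the threshold (adjusted p = 0.0646).

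The main sheddases moved little. Adam17 (Entrez gene 11491, chromosome 12, 21323509 to 21373632) releases TNF and EGF receptor ligands. Adam17 stood at 1900.3, 2012, 2134, 1964 and 2057 normalized reads in DPP4+ cells at 22 °C and at 1489, 1575, 1662, 1597 and 1961 at 6 °C. Adam17 in DPP4- cells measured 2232, 1985, 1879, 1933 and 1993 at 22 °C and 2158, 1809, 1799, 1909 and 2022 at 6 °C. One cold DPP4+ library, replicate 5, fell among the warm ones. The fall in DPP4+ cells was small (log2 difference -0.29, SE 0.07, adjusted p = 0.0015). Adam9, also a sheddase, fell by 0.20 (SE 0.06, adjusted p = 0.00515), with means of 4562 ± 72 and 3978 ± 93.9. Adam10 (Entrez gene 11487, chromosome 9, 70678944 to 70780229), which cuts Notch receptors, gave -0.08 in DPP4- cells (adjusted p = 0.625) and a 95% interval from -0.19 to 0.18 in DPP4+ cells.

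Of the inhibitors only Timp1 was called in the cold. Timp1 (Entrez gene 21857, chromosome X, 20870166 to 20874737) is a secreted inhibitor that binds the precursor of Mmp9. Timp1 stood at 3724, 3633, 2920.1, 3628 and 3378 normalized reads in DPP4+ cells at 22 °C and at 6407, 5499, 5401, 6298 and 3923 at 6 °C. Timp1 in DPP4- cells measured 2949, 3036, 2888, 3322 and 3415 at 22 °C and 2693, 3383, 2701, 2972 and 2281 at 6 °C. Each cold DPP4+ library exceeded each warm one, replicate 5 by little. The rise was 1.59-fold (log2 difference 0.66, SE 0.11, adjusted p = 5.42e-05). Timp2 (Entrez gene 21858, chromosome 11, 118301061 to 118355411) forms the complex with Mmp14 through which Mmp2 is activated. Timp2 stood at 39164, 43810.3, 51007, 44512 and 51653 normalized reads in DPP4+ cells at 22 °C and at 41284, 53668, 46992, 46033 and 74973 at 6 °C. Timp2 in DPP4- cells measured 45719, 40049, 39971, 38754 and 41548 at 22 °C and 39900.5, 42239.7, 38584, 41050.0 and 39309 at 6 °C. Cold and warm libraries overlapped in both populations, with the cold DPP4+ replicate 5 above all others. Its difference in DPP4+ cells was not called (log2 difference 0.17, SE 0.12, adjusted p = 0.25). Timp3 (Entrez gene 21859, chromosome 10, 86300412 to 86349505) is bound to the matrix and also inhibits Adam17 and ADAMTS proteases. Timp3 stood at 7729, 8018, 9549, 8511 and 9176 normalized reads in DPP4+ cells at 22 °C and at 6623, 8199, 7875, 7188 and 10702 at 6 °C. Timp3 in DPP4- cells measured 10182, 12114, 12528, 12077 and 14964 at 22 °C and 10130.0, 11912, 13203, 10313 and 7582 at 6 °C. No cold difference passed the test, at -0.10 in DPP4+ cells (adjusted p = 0.576) and -0.23 in DPP4- cells (adjusted p = 0.333).

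One library stood out in several of these genes. DPP4+ replicate 5 at 6 °C had the lowest cold value of Adamtsl2, Adamts9, Mmp17, Adamts4, Timp1 and Adam12 and the highest of Adamts15, Adamts5, Adamtsl4 and Timp2. Without it 9 members rose and 12 fell in DPP4+ cells. Other markers moved with the cold in the same population. The pericyte and smooth muscle markers, all 12 detected, summed to 9394 to 12170 at 22 °C and to 4290 to 7168 at 6 °C. Most of that sum was Acta2 (means 6046 and 3083) and Tagln (3700 and 2123), while Abcc9 (222 and 342), Kcnj8 and Rgs5 of the same list had higher means at 6 °C. The progenitor receptor gene Pdgfra averaged 11512 ± 419 and 5287 ± 462 and Pdgfrb, the sorting marker, 2942 ± 226 and 1505 ± 80.7 (SD, n = 5). Their part in the differences of the proteases was not tested.

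In DPP4- cells the cold changed 2 of the 48 members, both downward, against 5.22% of all genes tested (1.98% upward and 3.23% downward). The 0 members that rose with limma became 1, Mmp27, with DESeq2 and 0 with edgeR, and 3 members had a positive difference with an unadjusted p under 0.05. The groups did not overlap for 4 members, against 4.87% of all genes. Beside Adamtsl2, the member that fell was Mmp23 (Entrez gene 26561, chromosome 4, 155650655 to 155654539), a membrane-anchored MMP that lacks the usual hemopexin domain. Mmp23 stood at 1637, 1806, 1751, 1902 and 1916 normalized reads in DPP4+ cells at 22 °C and at 1348, 1649.6, 1578, 1531 and 1894 at 6 °C. Mmp23 in DPP4- cells measured 1317, 1296, 1173, 1220.5 and 1319 at 22 °C and 847, 1253, 1037, 977 and 859 at 6 °C. The cold DPP4- libraries lay below the warm ones except replicate 2. Mmp23 fell 1.27-fold in DPP4- cells (log2 difference -0.36, SE 0.09, adjusted p = 0.021), a call lost without cold replicate 1 or 5, where the difference was -0.31. In DPP4+ cells Mmp23 was not called at the deposited scaling. There it was called lower with totals set equal (-0.22, adjusted p = 0.0165) and with quantile normalization (-0.28, adjusted p = 0.00717). The test of the difference between the cold effects did not pass for Mmp23. Mmp27 averaged 461 ± 62.8 at 22 °C and 645 ± 79 at 6 °C (SD, n = 5) and was not called (log2 difference 0.49, SE 0.17, adjusted p = 0.0929). Its groups did not overlap. The rise was called with DESeq2 (adjusted p = 0.0455) and with totals set equal (0.57, adjusted p = 0.0195). Fitting limma to only the DPP4- libraries also called it (adjusted p = 0.0118). Mmp9, which neutrophils store, reached 28.6 and Adam8 54.5 in DPP4- replicate 2 at 6 °C, the library with the highest sum of neutrophil and mast cell markers, and the part of such cells was not tested.

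The cold effects differed between the populations for 17 of the 48 genes, against 33.2% of all genes tested (16.8% upward and 16.4% downward). In this test of the difference 8 genes moved further up in DPP4+ than in DPP4- cells and 9 further down. Of the genes called in DPP4+ cells, 8 of the 9 that rose and 8 of the 11 that fell were also called for the difference, the others being Mmp19, Adamts10, Adam17 and Adam9. With totals set equal and with quantile normalization Adam17 (-0.38 and -0.41), Adam9 (-0.32 and -0.41) and Adamts10 (-0.27 and -0.29) were called for it too. DESeq2 also called Adam9 (adjusted p = 0.0243). The largest differences upward were Adamtsl2 (log2 difference 3.37, SE 0.30, adjusted p = 5.56e-09) and Adamts9 (log2 difference 2.70, SE 0.27, adjusted p = 2.19e-07), followed by Mmp17 (1.20), Adamts4 (1.10) and Timp1 (0.82). Downward they were Mmp11 (log2 difference -2.27, SE 0.24, adjusted p = 3.07e-07) and Adamts15 (log2 difference -2.19, SE 0.17, adjusted p = 2.07e-09), followed by Adam11 (-1.48), Adam19 (-1.06), Adamts7 (-0.98), Adam12 (-0.92), Adamts5 (-0.70) and Adam23 (-0.49). Adamts16 also differed (log2 difference -2.05, SE 0.60, adjusted p = 0.0126), on 0 to 7 reads in each DPP4- library, and missed the threshold with edgeR (adjusted p = 0.0515). The Adam11 difference, on 3 to 29 reads in each DPP4+ library, missed it with quantile normalization (-1.29, adjusted p = 0.0563).

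The smaller differences of Adamtsl4 (0.55), Mmp2 (0.36) and Mmp14 (0.30) were less firm. With totals set equal they were 0.41 (adjusted p = 0.0623), 0.22 (adjusted p = 0.129) and 0.15 (adjusted p = 0.210), and they missed the threshold also with quantile normalization. The Mmp2 call was lost without any of 12 libraries in turn. That of Adamtsl4 was lost without any of 4 and that of Mmp14 without any of 2. The count of 8 upward differences was 5 under both of these scalings and 5 without DPP4+ replicate 1 at 22 °C, the library with the lowest Mmp2, and the count of 9 downward was 13 and 11 under the scalings. Of all 13057 genes 2192 differed upward and 2137 downward. These were 1191 and 3233 with totals set equal and 1968 and 2089 with quantile normalization. Setting totals equal moved the median of all genes for this difference from 0.01 to -0.12.

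Between the populations at 22 °C, 35 of the 48 members differed, 12 higher in DPP4+ and 23 higher in DPP4- cells, against 74.9% of all genes (38.7% in the first direction and 36.2% in the other). At 6 °C 15 were higher in DPP4+ and 25 in DPP4- cells, against 74.2% (38.5% and 35.7%). The groups were apart for 28 and 32 members, against 64.8% and 57.1% of all genes. The direction of these counts depends on the scaling of the libraries. Setting totals equal moved the median of all genes from 0.03 to 0.57 at 22 °C and to 0.44 at 6 °C, and gave 23 higher and 15 lower members at 22 °C and 22 and 20 at 6 °C. Quantile normalization gave 18 and 23, and 18 and 21, against 5038 and 4698, and 5010 and 4640, of all genes. Set against the median of all genes, the members' median was -0.39 at 22 °C and -0.42 at 6 °C, -0.43 and -0.38 with totals equal, and -0.22 and -0.11 with quantile normalization. Of the 48, 21 were lower in DPP4+ cells at both temperatures and 8 higher at both. The 2 population comparisons share no library.

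**Figure D4:**
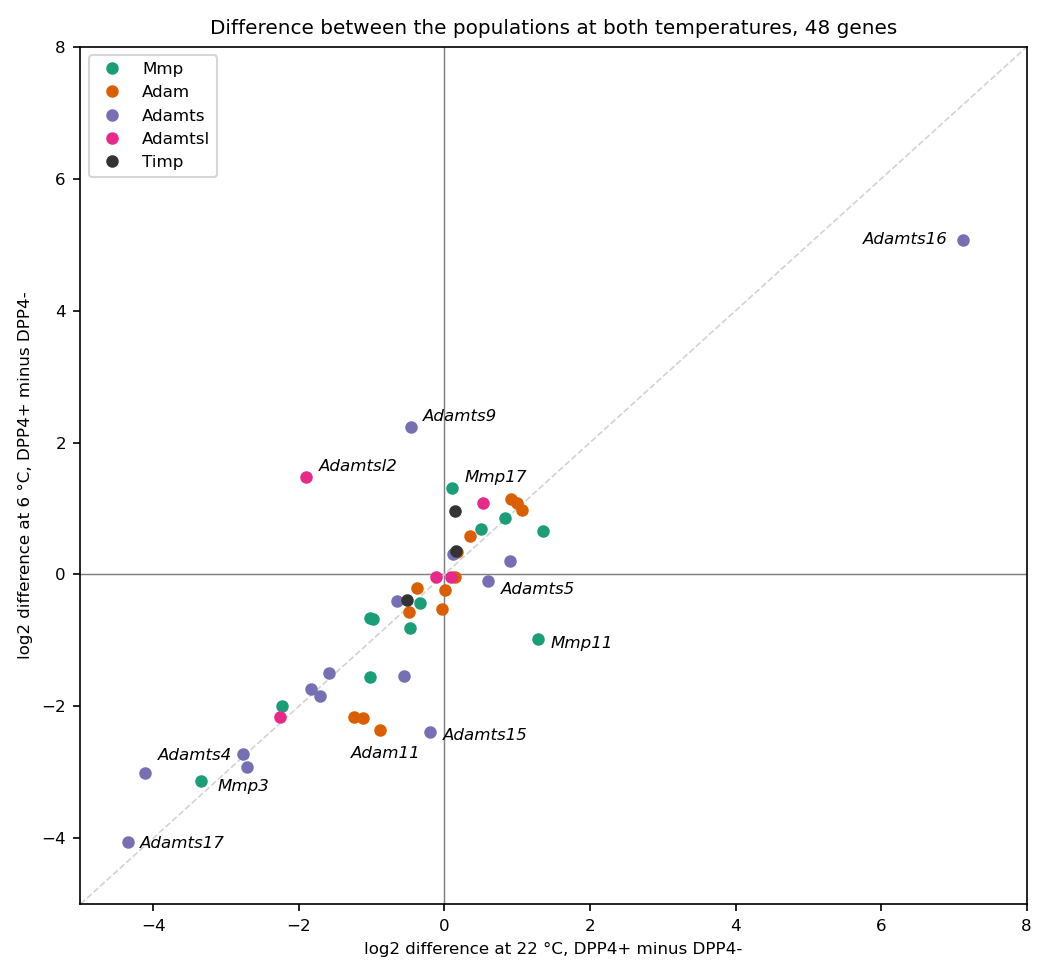
Log2 difference between DPP4+ and DPP4- cells at 22 °C (x axis) and at 6 °C (y axis) for the 48 members, coloured by family, with some of the outer points named and a dashed line where both are equal. Adamts16 lies at 7.12 and 5.07, Adamts17 at -4.35 and -4.05, and Adamtsl2, Adamts9 and Mmp11 have opposite signs at the 2 temperatures, Adamts9 not with library totals set equal.

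The genes that parted the populations most toward DPP4- cells were Adamts proteases and Mmp3. Mmp3, whose values are given above, was 10.1-fold higher in DPP4- cells at 22 °C (log2 difference -3.34, SE 0.10, adjusted p = 5.97e-19) and 8.67-fold higher at 6 °C. Adamts4 was 16.8-fold higher at 22 °C (log2 difference -4.11, SE 0.17, adjusted p = 1.43e-14) and 8.07-fold at 6 °C, and Adamts1 3.51-fold (log2 difference -1.83, SE 0.11, adjusted p = 4.86e-13) and 3.32-fold. Mmp19 was 4.7-fold and 4.02-fold higher and Adamts10 3.28-fold and 3.58-fold. Each of these 5 genes kept its groups apart at both temperatures. The summed markers of tissue dissociation and the immediate early response, 13 genes, were 45496 to 58196 in DPP4+ and 211275 to 279802 in DPP4- libraries at 22 °C, and 39147 to 69151 and 211145 to 261676 at 6 °C. Their part in these differences was not tested.

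Adamts17 (Entrez gene 233332, chromosome 7, 66839699 to 67153171), a protease of fibrillin-rich matrix, was close to 0 in DPP4+ cells. Adamts17 stood at 3.11, 3.93, 5.79, 3.13 and 2.91 normalized reads in DPP4+ cells at 22 °C and at 2.59, 5.26, 3.88, 1.71 and 1.5 at 6 °C. Adamts17 in DPP4- cells measured 72.9, 152, 122, 75.2 and 73.3 at 22 °C and 37.5, 49.1, 64.8, 115 and 62.5 at 6 °C. DPP4+ libraries held 2 to 8 whole reads each and DPP4- libraries 28 to 101. The populations differed 26.2-fold at 22 °C (log2 difference -4.35, SE 0.30, adjusted p = 4.6e-12) and 22-fold at 6 °C (log2 difference -4.05, SE 0.30, adjusted p = 1.55e-11). Adamts12 (Entrez gene 239337, chromosome 15, 11064773 to 11349232), a relative of Adamts7, was also higher in DPP4- cells. Adamts12 stood at 1077, 1785, 1568, 1557 and 1696 normalized reads in DPP4+ cells at 22 °C and at 1040.1, 1299, 1479.7, 1149 and 1423 at 6 °C. Adamts12 in DPP4- cells measured 8478, 10434, 9404, 11124 and 10440.3 at 22 °C and 8457, 8981, 9360.1, 10932 and 10484 at 6 °C. Every DPP4- library lay above every DPP4+ one. The fold was 6.49 and 7.54 (log2 difference -2.92, SE 0.12, adjusted p = 1.67e-15 at 6 °C).

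Adamts14 (Entrez gene 237360, chromosome 10, 61197112 to 61273419), a procollagen N-proteinase, was likewise higher in DPP4- cells. Adamts14 stood at 118, 206, 206, 145 and 177 normalized reads in DPP4+ cells at 22 °C and at 149, 147, 192, 161 and 207 at 6 °C. Adamts14 in DPP4- cells measured 916, 1293, 1228, 1194 and 1119 at 22 °C and 1059, 879, 1096, 1158 and 1509 at 6 °C. The populations were apart and the temperatures overlapped. The difference was 6.75-fold (log2 difference -2.77, SE 0.15, adjusted p = 1.45e-12) and 6.65-fold. Adamtsl3 (Entrez gene 269959, chromosome 7, 82335399 to 82614450) has no protease domain. Adamtsl3 stood at 217, 222, 247, 203 and 222 normalized reads in DPP4+ cells at 22 °C and at 213, 157, 205, 165 and 242 at 6 °C. Adamtsl3 in DPP4- cells measured 1065, 959, 1160.1, 1165 and 998 at 22 °C and 757, 821, 811, 1263 and 808 at 6 °C. DPP4- replicate 4 at 6 °C was the highest of all, and again the populations did not overlap. They differed 4.81-fold (log2 difference -2.26, SE 0.12, adjusted p = 2.06e-13) and 4.54-fold.

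Toward DPP4+ cells the largest difference was that of Adamts16 (Entrez gene 271127, chromosome 13, 70727798 to 70841845). Adamts16 stood at 249, 419, 321, 324 and 401 normalized reads in DPP4+ cells at 22 °C and at 111, 215, 187, 136 and 203 at 6 °C. Adamts16 in DPP4- cells measured 1.35, 1.5, 0, 3.07 and 2.57 at 22 °C and 8.04, 2.73, 1.35, 13.2 and 1.65 at 6 °C. DPP4- libraries held 0 to 13.2 normalized reads and DPP4+ libraries over 100. The group means differed 202-fold at 22 °C (log2 difference 7.12, SE 0.43, adjusted p = 4.01e-12) and 31.6-fold at 6 °C (log2 difference 5.07, SE 0.43, adjusted p = 9.12e-10), and the DPP4- libraries held 0 to 7 whole reads each, so the size of the fold rests on few reads.

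Adam10, Adam33 and Adam22 were higher in DPP4+ cells at both temperatures and were not called for cold in either population. Adam10, the Notch sheddase named above, set the populations apart. Adam10 stood at 1404, 1407, 1290.3, 1299.7 and 1273 normalized reads in DPP4+ cells at 22 °C and at 1368, 1298, 1248, 1239.8 and 1535 at 6 °C. Adam10 in DPP4- cells measured 674, 709, 655, 669 and 644 at 22 °C and 488, 588, 626, 734 and 762 at 6 °C. No DPP4- library reached the lowest DPP4+ one. It was 1.99-fold (log2 difference 0.99, SE 0.09, adjusted p = 3.39e-10) and 2.09-fold higher in DPP4+ cells. Adam33 (Entrez gene 110751, chromosome 2, 131050819 to 131063814) is a protease of fibroblasts and smooth muscle. Adam33 stood at 1179, 1246, 1292, 1234 and 1465 normalized reads in DPP4+ cells at 22 °C and at 1289, 1518, 1228, 1282 and 1973 at 6 °C. Adam33 in DPP4- cells measured 564, 584, 675, 602 and 622 at 22 °C and 870.1, 654, 671, 657 and 803 at 6 °C. Its groups were likewise apart, with DPP4+ replicate 5 at 6 °C the highest. The fold was 2.11 (log2 difference 1.07, SE 0.11, adjusted p = 6.27e-09) and 1.99. Adam22 (Entrez gene 11496, chromosome 5, 8072347 to 8368312), without an active protease, binds LGI proteins as Adam23 does. Adam22 stood at 189.7, 239, 349.5, 304 and 301 normalized reads in DPP4+ cells at 22 °C and at 210.4, 292, 301, 231 and 329 at 6 °C. Adam22 in DPP4- cells measured 122, 135, 139.8, 169 and 158 at 22 °C and 93.8, 166, 140.4, 126 and 94.6 at 6 °C. The ranges came close at 22 °C without overlapping. Adam22 was 1.91-fold (log2 difference 0.91, SE 0.17, adjusted p = 6.3e-05) and 2.19-fold higher in DPP4+ cells. Members with values given above, Mmp23 and Adamtsl4, were higher there at both temperatures, Mmp23 by 0.51 and 0.69 and Adamtsl4 by 0.53 and 1.08 on the log2 scale.

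For 3 members the order of the populations turned with temperature. Mmp11 was higher in DPP4+ cells at 22 °C (log2 difference 1.29, SE 0.17, adjusted p = 7.75e-07) and higher in DPP4- cells at 6 °C (log2 difference -0.98, SE 0.17, adjusted p = 2.75e-05). Adamtsl2 was higher in DPP4- cells at 22 °C (log2 difference -1.90, SE 0.21, adjusted p = 1.83e-08) and in DPP4+ cells at 6 °C (log2 difference 1.48, SE 0.21, adjusted p = 1.01e-06). Adamts9 was slightly lower in DPP4+ cells at 22 °C (log2 difference -0.46, SE 0.19, adjusted p = 0.0333), where the sign turned to 0.14 with totals set equal and the call was lost without 6 of the libraries in turn, and higher there at 6 °C (log2 difference 2.24, SE 0.19, adjusted p = 1.89e-09). Adamts15 and Adam23 were lower in DPP4+ cells at 6 °C, at -2.39 and -0.53, though Adam23 was at -0.057 (adjusted p = 0.522) with totals set equal. At 22 °C they gave -0.19 and -0.03 and were not called, but with totals set equal both were called higher in DPP4+ cells, at 0.41 (adjusted p = 0.00238) and 0.58 (adjusted p = 3.05e-07), and Adam23 also with quantile normalization (0.40, adjusted p = 5.33e-05). Mmp17 and Timp1 were higher in DPP4+ cells at 6 °C, at 1.30 and 0.96, and at 22 °C gave 0.11 (adjusted p = 0.623) and 0.14 (adjusted p = 0.251). With totals set equal both were called at 22 °C too, at 0.58 (adjusted p = 0.00279) and 0.75 (adjusted p = 1.12e-05), and Timp1 also with quantile normalization (0.58, adjusted p = 0.000362). Adamts5 was higher in DPP4+ cells at 22 °C (log2 difference 0.60, SE 0.12, adjusted p = 0.000113) and gave -0.11 at 6 °C (adjusted p = 0.435), where the sign turned to 0.36 with totals set equal (adjusted p = 0.00336) and to 0.26 with quantile normalization (adjusted p = 0.0333).

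Mmp2, Mmp14 and the Timp genes differed less than Mmp3. Mmp2 was 2.01-fold higher in DPP4- cells at 22 °C (log2 difference -1.03, SE 0.09, adjusted p = 7.22e-10) and 1.58-fold at 6 °C (log2 difference -0.66, SE 0.09, adjusted p = 9.14e-07), but with quantile normalization the call was lost at 22 °C (-0.16, adjusted p = 0.0775) and the sign turned at 6 °C (0.035, adjusted p = 0.698). Mmp14 was 1.96-fold and 1.59-fold higher there (log2 difference -0.68, SE 0.07, adjusted p = 1.1e-08 at 6 °C, and -0.11 with quantile normalization). Timp3 was lower in DPP4+ cells at both temperatures, at -0.52 and -0.38, with a sign that turned under both of the other scalings. Timp2 was not called at 22 °C (0.15, adjusted p = 0.233), though it was with totals set equal (0.77, adjusted p = 1.81e-08) and with quantile normalization (1.09, adjusted p = 1.63e-11), and was called higher in DPP4+ cells at 6 °C (log2 difference 0.36, SE 0.12, adjusted p = 0.00856), which fell to 0.22 (adjusted p = 0.0286) without DPP4+ replicate 5. Adam12 and Adam19 were higher in DPP4- cells at both temperatures, by 2.45-fold and 2.18-fold at 22 °C and by 4.48-fold and 4.55-fold at 6 °C.

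The other members were at lower levels or moved less. Mmp28 was higher in DPP4- cells, with 73.4 ± 29.5 against 32.5 ± 1.81 at 22 °C (SD, n = 5), and Mmp15 higher in DPP4+ cells, with 49.7 ± 9.82 against 18.7 ± 2.73. For Mmp28, DPP4- replicate 1 at 22 °C stood at 25.7, below every DPP4+ library at that temperature. Adamts8 averaged 133 ± 27 in DPP4- and 49 ± 28.9 in DPP4+ cells at 22 °C. Adamts6 was higher in DPP4+ cells at 22 °C (log2 difference 0.90, SE 0.25, adjusted p = 0.00249), and Adamts3 higher in DPP4- cells (log2 difference -0.66, SE 0.16, adjusted p = 0.000602) except with totals set equal (-0.048, adjusted p = 0.699). Mmp28 at 22 °C also missed the threshold with totals set equal (-0.36, adjusted p = 0.066). The 5 members Adamtsl1, Adamtsl5, Adam8, Mmp9 and Mmp16 passed the threshold in neither population comparison, of which Adamtsl1 averaged 4220 to 4703 in the 4 groups. That depends on the scaling: with totals set equal Adamtsl1 (0.50 and 0.43), Adamtsl5 (0.68 and 0.41) and Mmp9 (0.44 and 0.53) were called higher in DPP4+ cells at both temperatures, and with quantile normalization Adamtsl1 was called higher at both and Adam8 (-0.60) and Mmp16 (-0.57) lower at 22 °C. Adam15 was slightly higher in DPP4+ cells at both temperatures (0.17 and 0.35), Adam9 at 22 °C (0.14), and Adam5 and Adamts2 at 6 °C (0.58 and 0.31). With totals set equal Adamts2 (0.74, adjusted p = 1.04e-11) and Adam5 (0.70, adjusted p = 2.2e-05) were called higher at 22 °C too, and Adam9 (0.43) at 6 °C. Quantile normalization also called Adamts2 at 22 °C (0.80, adjusted p = 4.43e-10) and Adam9 at 6 °C (0.24). At 22 °C the Adam15 call was lost with DESeq2 (adjusted p = 0.0618) and without any of 7 libraries in turn, and that of Adam9 without any of 3. Without DPP4- replicate 3 at 6 °C the Adam5 difference was 0.36 and missed the threshold (adjusted p = 0.073). Adam1a, Adam11 and Mmp27 were lower in DPP4+ cells at both temperatures, at -0.57, -2.37 and -0.81 at 6 °C, where at 22 °C Adam1a and Mmp27 changed sign with totals set equal. That scaling also ended the calls of Adam1a at 6 °C (-0.077, adjusted p = 0.556) and Adam11 at 22 °C (-0.21, adjusted p = 0.272), and at 22 °C each of these 2 genes lost its call without any of 3 libraries in turn. The exons of 13 of the 48 members overlap a gene on the other strand, namely Adamts9, Adamts4, Adamts7, Mmp11, Mmp19, Adam17, Adam19, Adamts8, Adam8, Adam15, Adam1a, Mmp28 and Timp3, and reads in such bases cannot be told apart.

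Genes that act on or with these proteases were taken from lists chosen beside the members. Of 20 protease regulators 16 were tested, and 5 rose and 2 fell in DPP4+ cells in the cold, a share near the 46.1% of all genes. Of the proprotein convertases, which remove the propeptide of many metalloproteases, Pcsk7 rose (0.29, adjusted p = 0.00327), as did Pcsk5 at 1223 ± 130.2 and 2604 ± 303 (log2 difference 1.09, SE 0.08, adjusted p = 1.02e-10) and Furin at 1699.6 ± 52.9 and 2311 ± 134 (log2 difference 0.44, SE 0.05, adjusted p = 4.6e-07). Pcsk6 averaged 7449 and 6959 in DPP4+ cells and was not called (-0.10, adjusted p = 0.619). In DPP4- cells Pcsk5 fell (log2 difference -0.30, SE 0.08, adjusted p = 0.0311), as did Pcsk6 (log2 difference -0.58, SE 0.15, adjusted p = 0.033). Lrp1, which clears proteases and TIMPs from the cell surface, rose in DPP4+ cells by 0.28 (adjusted p = 0.0142), and Tspan17, a tetraspanin partner of Adam10, fell by 1.02 (adjusted p = 1.03e-06). Between the populations Papln was 381 ± 49.5 in DPP4+ and 21.1 ± 4.14 in DPP4- cells at 22 °C (log2 difference 4.12, SE 0.20, adjusted p = 2.31e-14), and Reck, a membrane inhibitor of MMPs, 2320.1 ± 175 and 1415 ± 47.9 (log2 difference 0.71, SE 0.09, adjusted p = 1.84e-07).

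Of 12 ligands shed by ADAM proteases 8 were tested, and in DPP4+ cells in the cold 3 rose and 1 fell, again near the 46.1% of all genes. Ereg, an EGF receptor ligand, averaged 19.2 ± 5.44 and 84.5 ± 21.4 (log2 difference 2.08, SE 0.59, adjusted p = 0.00687), Tgfa 27.5 ± 2.82 and 41.8 ± 6.37 (log2 difference 0.58, SE 0.12, adjusted p = 0.000444), and Btc 4.16 ± 1.45 and 7.82 ± 1.36 (log2 difference 0.80, SE 0.19, adjusted p = 0.00131). Nrg1, the neuregulin that Adam19 can shed, averaged 45.7 ± 5.03 and 6.6 ± 1.68 (log2 difference -2.65, SE 0.60, adjusted p = 0.00108). Of 13 substrates 10 were tested. In DPP4+ cells Vcan, the versican that Adamts proteoglycanases cut, rose from 7856 ± 615 to 26829.7 ± 4722 (log2 difference 1.76, SE 0.12, adjusted p = 2.94e-11), and Fn1, fibronectin, fell (log2 difference -0.34, SE 0.10, adjusted p = 0.011). In DPP4- cells 7 of the 10 substrates fell and 0 rose with limma, against 3.23% and 1.98% of all genes, among them Vcan (log2 difference -0.56, SE 0.12, adjusted p = 0.00807) and Fn1 (log2 difference -0.82, SE 0.10, adjusted p = 0.000153). The 0 was also 0 at an unadjusted p under 0.05 and with edgeR and DESeq2, and the 7 became 6 with edgeR or with totals set equal and 2 with quantile normalization.

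Of 6 other metalloproteases 4 were tested. Tll1, a tolloid-like protease of the procollagen C-proteinase group, rose from 95.9 ± 23.1 to 1249 ± 183 in DPP4+ cells (log2 difference 3.71, SE 0.14, adjusted p = 6.3e-15), a larger fitted difference than that of any of the 48 members there, and gave -0.19 in DPP4- cells (adjusted p = 0.469). Bmp1, of the same group, rose by 0.32 in DPP4+ cells (adjusted p = 0.000257). Mme, neprilysin, fell in DPP4+ cells (log2 difference -0.62, SE 0.12, adjusted p = 0.000256) and was higher in DPP4- cells, with 2402 ± 151 against 188 ± 8.3 at 22 °C.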

How the data were processed

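Bulk RNA-seq of 20 libraries in 4 groups of 5 was used. The labels' protocols name the RNAqueous micro kit for RNA and NEBNext Ultra II for libraries. The submitters' processing notes name Trim Galore 0.4.1, HISAT2 2.0.1, featureCounts 1.4.6, DESeq2 1.6.3 and GRCm38, with no role or order. Annotation and strand are not given in the sources used here. The authors deposited a signal table of normalized counts per gene, each library's counts divided by 1 factor. All values were whole multiples of a step per library (100%, tolerance 0.1 read), which gave back the whole reads. No column was left unused.

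Genes with a mean of at least 10 (13057 of 27179) entered the fit, limma 3.58.1 in R 4.3.3 on log2(value + 1) (4 group means, 16 residual degrees of freedom, variance trend, robust), two-sided, with Benjamini-Hochberg adjustment over all genes in each of 5 contrasts. The procedure was tested on simulated data. Alternatives were edgeR 4.0.16 and DESeq2 1.42.0 on whole reads, other scalings, pseudocounts, filters, a replicate block and leaving out each library. Coordinates are RefSeq GRCm38.p6, exon lengths GENCODE vM21. Sums per kb are descriptions.

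Values in every library are given for 12 set members, where tested, the up to 8 largest changes per direction among called members with a group mean of at least 50, and the 6 smallest p-values per direction for the difference of cold effects, 31 genes in all. Members and lists were chosen with earlier results of these data known. Depth was 8.49 to 18.8 M reads, so genes with few reads have wide errors. Same-numbered libraries were not treated as pairs, since the labels do not tie a number to an animal.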

Additional observations from a re-analysis of the deposited data

Results flagged for a closer look

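Of 192 groups of 5 examined for a library far from the other 4 (48 members in 4 groups), 16 had one, where chance gives about 1 in 20. In DPP4+ cells at 22 °C, replicate 1 was lowest for Mmp2 (17726, next 25143) and Mmp3 (1678, next 2284), replicate 3 lowest for Adam8 (10.9), and replicate 2 highest for Adamtsl2 (32.1, next 18.8). In DPP4+ cells at 6 °C, replicate 5 was highest for Adamtsl4 (4838, next 2932) and Adamtsl5 (946, next 600.3), and replicate 1 for Adamts6 (35.4). In DPP4- cells at 22 °C, replicate 1 was lowest for Adam23 (2730.4) and highest for Mmp11 (251), and replicate 4 highest for Adam5 (49.1) and Adamts7 (203). In DPP4- cells at 6 °C, replicate 2 was highest for Mmp9 (28.6, next 7.53) and Adam8 (54.5, next 29.5), replicate 1 for Adamts10 (2654), replicate 4 for Adamtsl3 (1263, next 821) and replicate 5 for Adamtsl5 (813).

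The cold effect, as a log2 difference, was tested for a difference between DPP4+ and DPP4- cells with limma and differed for 17 members. It was more positive in DPP4+ cells for Adamtsl2 (3.37), Adamts9 (2.70), Mmp17 (1.20), Adamts4 (1.10), Timp1 (0.82), Adamtsl4 (0.55), Mmp2 (0.36) and Mmp14 (0.30). It was more negative for Mmp11 (-2.27), Adamts15 (-2.19), Adamts16 (-2.05), Adam11 (-1.48), Adam19 (-1.06), Adamts7 (-0.98), Adam12 (-0.92), Adamts5 (-0.70) and Adam23 (-0.49).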

How the results depend on the processing

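Scaling was the choice that moved most. With totals set equal, the population comparison at 22 °C gave 23 members higher and 15 lower in place of 12 and 23, and members whose cold effect was more positive in DPP4+ cells 5 in place of 8, which was 5 also with quantile normalization. Of all 13057 genes, equal totals put 9118 higher and 2047 lower at 22 °C in place of 5052 and 4730. Members that rose in DPP4- cells in the cold, 0 with limma, were 2 with totals set equal, 1 with DESeq2 and 1 when only the 10 libraries compared were fitted. Among members called without it, signs turned with totals set equal between the populations at 22 °C for Adam1a (0.057), Adamts7 (0.045), Adamts9 (0.14), Mmp27 (0.13) and Timp3 (0.094), and at 6 °C for Adam17 (0.24), Adamts3 (0.040) and Timp3 (0.084). With quantile normalization signs of called members turned for Timp3 (0.089 at 22 °C and 0.032 at 6 °C) and Mmp2 (0.035 at 6 °C). Some members not called without these scalings turned from negative to positive and were then called: with totals set equal Adam23 (0.58), Adamts15 (0.41) and Adamtsl1 (0.50) at 22 °C and Adam9 (0.43), Adamts5 (0.36), Adamtsl1 (0.43) and Adamtsl5 (0.41) at 6 °C, and with quantile normalization Adam23 (0.40) and Adamtsl1 (0.39) at 22 °C and Adam9 (0.24), Adamts5 (0.26) and Adamtsl1 (0.25) at 6 °C. The cause was not tested.

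Leaving out 1 library at a time, members rose or fell in DPP4+ cells in the cold in ranges of 8 to 9 and 10 to 12, and in DPP4- cells of 0 to 1 and 1 to 3. The 1 that rose in DPP4- cells came without DPP4+ replicate 1 at 6 °C and the lowest fall count without DPP4- replicate 1 at 6 °C. The cold effects differed upward for 5 to 8 members, 5 without DPP4+ replicate 1 at 22 °C, and downward for 9 to 11. Between the populations 10 to 12 were higher and 20 to 24 lower at 22 °C, and 14 to 15 and 24 to 26 at 6 °C. Of 114 called member values over the 5 comparisons, 15 lost the call without at least 1 library and 0 changed sign.

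The labels do not say whether replicate numbers pair the samples. Correlations of same-numbered libraries ran from -0.23 to 0.27, and not every library correlated best with its own number. Between DPP4+ and DPP4- libraries they ran from 0.029 to 0.156 at 22 °C and from 0.017 to 0.107 in the cold. In the cold, replicates 2, 3, 4 and 5 correlated best with their own number in this comparison, and replicate 1 did not. At 22 °C replicates 2 and 5 did, and replicates 1, 3 and 4 did not. With the number as a replicate block 9 members rose and 12 fell in DPP4+ cells in the cold, 0 and 2 in DPP4- cells, 8 and 9 cold effects differed, and 12 and 23, and 15 and 25 members differed between the populations. A block within each temperature gave 24 lower at 22 °C. The split of Adam genes by their zinc-binding motif, planned at the outset, was not run because protein sequences were not used here. Genes with few reads, such as Adamts16 and Adamts17 in 1 population, have wide errors.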
